A study of Mus musculus with 6 samples.

Results

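The S100 genes S100a8, S100a9, S100a4, S100a6, S100a10, S100a11 and S100a13 were followed in splenic CD8+ T cells of mice whose tumors had been ablated. These 7 genes were chosen by name, with their measured difference between the groups of this study already known, out of 13 S100 genes among the 28773 gene IDs of the files. Their levels in the comparison of the groups are therefore given as a description, without a p-value. The 6 samples of day 35 formed 2 groups of 3. Mice of both groups carried an implanted tumor that was destroyed by microwave ablation (MWA). In MWA+2DG they were then injected with 2-deoxy-D-glucose, an analogue of glucose that inhibits glycolysis, and in MWA+PBS with the buffer alone. According to the study's methods the mice were female and CD8+ T cells were taken from spleen suspensions with an isolation kit. The labels do not give the tumor line, strain or age of the sequenced mice or say whether each sample was 1 mouse, so p-values measure the spread between these samples, which may be technical.

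S100 proteins are small calcium-binding proteins with a pair of EF-hand motifs, and most of them work as dimers that change shape on binding calcium and then hold on to a partner protein. S100A8 and S100A9 form calprotectin, an abundant cytoplasmic protein of neutrophils that binds zinc and manganese, feeds the phagocyte NADPH oxidase and, once released, signals through TLR4 and RAGE. The other members act mainly inside many cell types, on annexins, myosin and the cytoskeleton, and several of them are known to be higher in antigen-experienced T cells than in naive ones.

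All 7 genes lie on mouse chromosome 3, within the S100 gene cluster. S100a8 is the coding gene next to S100a9 and S100a10 the one next to S100a11, while S100a13 is next to S100a1. Promoter sequences from RefSeq were found for 6 of the 7 members, for all but S100a10. Each covered 300 bases, from 250 before to 50 after the annotated start, in build GRCm38.p6. Those of S100a8 (chr3:90668821-90669120 on the plus strand), S100a9 (chr3:90695672-90695971 on the minus strand) and S100a4 (chr3:90603520-90603819 on the plus strand) are shown because the first pair had the largest difference between the groups and S100a4 hardly any. Capitals mark matches to TATAAA (a box that helps to place the start of transcription), TTNNGNAA (the half-site pair bound by C/EBP factors) and GAGGAAGT (PU.1), each searched on both strands; no match overlapped another.
S100a8: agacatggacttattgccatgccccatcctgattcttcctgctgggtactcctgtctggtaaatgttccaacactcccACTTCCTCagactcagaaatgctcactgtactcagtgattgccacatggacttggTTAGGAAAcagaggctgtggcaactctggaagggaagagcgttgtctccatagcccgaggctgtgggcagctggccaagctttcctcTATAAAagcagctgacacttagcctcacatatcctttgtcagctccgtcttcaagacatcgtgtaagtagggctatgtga
S100a9: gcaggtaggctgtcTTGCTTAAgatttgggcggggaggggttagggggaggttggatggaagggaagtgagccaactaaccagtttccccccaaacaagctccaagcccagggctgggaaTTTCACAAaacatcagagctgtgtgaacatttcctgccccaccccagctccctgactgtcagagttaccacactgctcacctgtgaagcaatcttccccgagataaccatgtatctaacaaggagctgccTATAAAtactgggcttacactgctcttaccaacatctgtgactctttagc
S100a4: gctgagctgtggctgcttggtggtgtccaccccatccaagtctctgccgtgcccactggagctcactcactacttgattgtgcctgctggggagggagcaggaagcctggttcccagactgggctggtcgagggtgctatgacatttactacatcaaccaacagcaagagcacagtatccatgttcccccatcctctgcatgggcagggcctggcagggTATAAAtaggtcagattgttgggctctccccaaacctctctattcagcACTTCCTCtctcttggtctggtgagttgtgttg
In S100a8 the TATA letters began 30 bases before the annotated start, at -30, with a C/EBP match at -117 and a PU.1 match at -172. In S100a9 the TATA letters began at the annotated start itself, and the C/EBP matches began at -236 and -130. S100a4 held TATA letters at -31 and a PU.1 match at 17, and no C/EBP match. Among all 32851 promoters of the same length, 13.62% held TATAAA, 40.68% TTNNGNAA and 3.202% GAGGAAGT. S100a6, S100a11 and S100a13 held none of these 3. S100a11 had the AP-1 letters TGAGTCA at -136 and -38, and 7.808% of all promoters held TGANTCA. A match is a run of letters and not a measured binding site.

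Values are FPKM, fragments counted per length of transcript and relative to all mapped fragments, so levels are per length and relative to each library's total. Samples had 22414 to 23340 genes above 0 and FPKM totals between 291803 and 313257, and read depth is unknown. No batch is labelled, and any that went along with the treatment cannot be told apart from it. The label CD8+ T cell was checked against Cd8a, which was 225.8 to 239.3 FPKM in MWA+PBS, against 359.0 to 377.1 FPKM in MWA+2DG. Markers of other cells were present in both groups. Of 12444 genes with a mean FPKM of at least 1, 38.2% passed the study's rule (P under 0.05, and beyond 0.25 on the log2 scale), 21.6% as higher after 2DG and 16.6% as lower. With the limma adjusted p under 0.05 these shares were 39.4%, 22.3% and 17.1%. The balance depended on the scaling. Of the genes passing the first rule 56.5% were higher, but 6.65% after scaling each sample to T cell lineage genes, which took the median log2 fold change of all genes from 0.05 to -0.34.

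All 7 members passed the filter on low values. By the study's rule 3 were higher in MWA+2DG (S100a8, S100a9 and S100a6) and 0 lower, against the 21.6% and 16.6% above, and the counts were the same by adjusted p. The 3 were those whose groups did not overlap. As the members were picked with this contrast known, nothing is read from these counts. The median log2 fold change of the members was 0.18, beside 0.05 for all tested genes. The nearest member inside the threshold was S100a6, at 0.56, and the nearest outside was S100a13, at 0.18. After scaling to T cell lineage genes S100a6 was no longer past it, at 0.18, and S100a4, S100a10 and S100a11 passed as lower, at -0.41, -0.33 and -0.37.

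**Figure D1:**
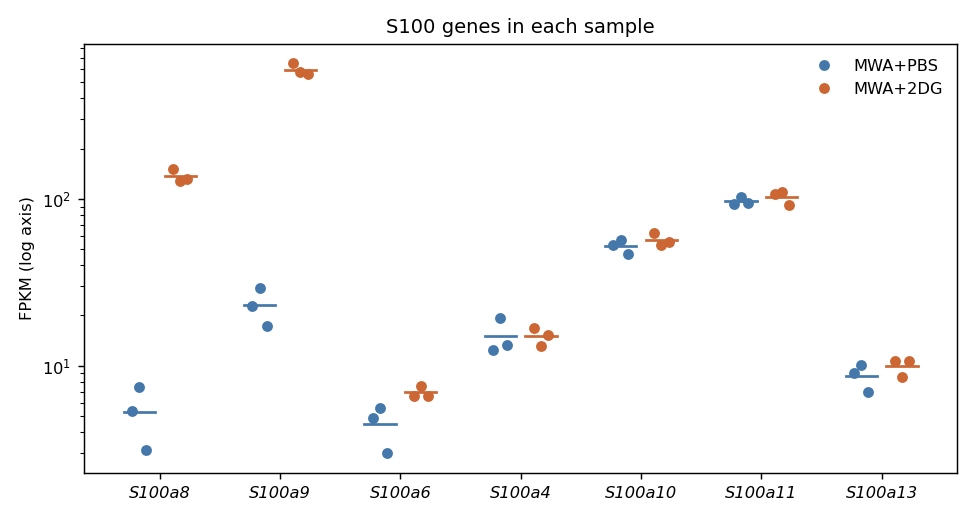
FPKM of the 7 S100 genes on a log axis, with a point for each sample and a line for each group mean (n = 3). The MWA+2DG points of S100a8 and S100a9 lie more than a log unit above those of MWA+PBS, S100a6 is narrowly apart at 6.58 FPKM and above against at most 5.58 FPKM, and the other 4 genes overlap.

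The calprotectin genes differed most. S100a9 (ENSMUSG00000056071) was 22.92, 29.34 and 17.35 FPKM in MWA+PBS (replicates 1, 2 and 3) and 648.42, 580.14 and 558.79 FPKM in MWA+2DG (replicates 4, 5 and 6). Every MWA+2DG sample was far above every MWA+PBS sample. The means were 23.2 ± 6.0 and 595.8 ± 46.8 FPKM (SD, n = 3), a log2 fold change of 4.65 ± 0.17 (SE).

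S100a8 (ENSMUSG00000056054), which encodes the partner chain, was 5.33, 7.47 and 3.14 FPKM in MWA+PBS and 150.48, 127.59 and 130.72 FPKM in MWA+2DG. The groups were again far apart, and the order of the MWA+PBS samples was that of S100a9. The means were 5.31 ± 2.17 and 136.3 ± 12.4 FPKM (SD, n = 3), a log2 fold change of 4.50 ± 0.23 (SE). The ratio of the group means was 25.65 for S100a8 and 25.68 for S100a9. Scaling to T cell lineage genes gave 4.08 for S100a8 and 4.20 for S100a9.

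Within a sample, S100a8 kept close to a fixed share of S100a9. The ratio of S100a8 to S100a9 FPKM was 0.2325, 0.2546 and 0.181 in MWA+PBS and 0.2321, 0.2199 and 0.2339 in MWA+2DG. These ranges overlapped, although both genes differed about 25.7-fold between the groups. The genes whose pattern over the 6 samples was nearest to that of S100a9 were S100a8, with a root mean square difference of 0.123 on the centred log2(FPKM + 1) scale, Ngp with 0.19, Camp with 0.193, Ltf with 0.224 and Lcn2 with 0.292. Ngp, Camp, Ltf and Lcn2 encode proteins of neutrophil granules. This scale keeps the difference between the groups, which was known, so genes with a similar log2 fold change come out nearest. The likeness is therefore not separate from that difference.

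Neutrophil markers were also higher in MWA+2DG, by unequal amounts. Of 14 markers on the list 12 were tested, and 4 of these, Retnlg, Mmp9, Cxcr2 and Ly6g, passed the filter only through MWA+2DG, the group where they were high. The other 8 reached a mean of 1 FPKM in both groups, and 8 were higher and 0 lower at a limma adjusted p under 0.05. By ratio of group means, Retnlg differed 48.1-fold, Ly6g 35.9-fold, Camp 28.9-fold and Mmp9 27.1-fold, all more than the 25.7-fold of S100a9. The MWA+PBS means of Retnlg, Ly6g and Mmp9 were only 0.52, 0.54 and 0.48 FPKM, so these ratios are uncertain. On the log2(FPKM + 1) scale Retnlg was at 4.1, Ly6g at 3.73, Camp at 4.36 and Mmp9 at 3.25, all less than the 4.65 of S100a9. Chil3 differed 7.86-fold, Cxcr2 7.21-fold, Mmp8 6.76-fold, Fcnb 3.46-fold and the leukotriene receptor gene Ltb4r1 1.73-fold, all less than S100a9. The neutrophil growth factor receptor gene Csf3r, on another list, differed 1.15-fold and did not pass (limma adjusted p = 0.104). The summed level of the 14 markers, to which Ngp and Ltf added most, was 44.7 to 55.1 FPKM in MWA+PBS, against 914.1 to 1008 FPKM in MWA+2DG. No marker was at 0 in every sample, but Stfa2 and Stfa2l1 were listed at 0 in the 3 MWA+PBS samples. In bulk RNA, fewer cells of a type and less RNA per cell cannot be told apart, and the part of neutrophil RNA in these results was not tested.

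The ratio of S100a9 to single neutrophil genes was then set side by side. S100a9 over Ngp was 0.678 to 0.988 in MWA+PBS, against 0.898 to 1.02 in MWA+2DG. S100a9 over Ltf was 3.70 to 5.37 and 4.34 to 5.05, and S100a9 over Lcn2 was 10.1 to 12.8 and 11.1 to 12.3. The groups overlapped for these 3 genes and for Camp. Over MWA+PBS levels of only 0.43 to 0.52 and 0.38 to 0.71 FPKM, where a ratio is uncertain, they overlapped for Mmp9 and Retnlg. They were apart, over MWA+PBS levels of only 0.37 to 0.83 FPKM, for Ly6g, a surface marker of mature neutrophils, with 35.4 to 55.9 in MWA+PBS, against 29.0 to 33.1 in MWA+2DG. They were also apart, in the other direction, for the granule collagenase Mmp8, with 10.5 to 13.1 and 40.9 to 51.5.

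**Figure D2:**
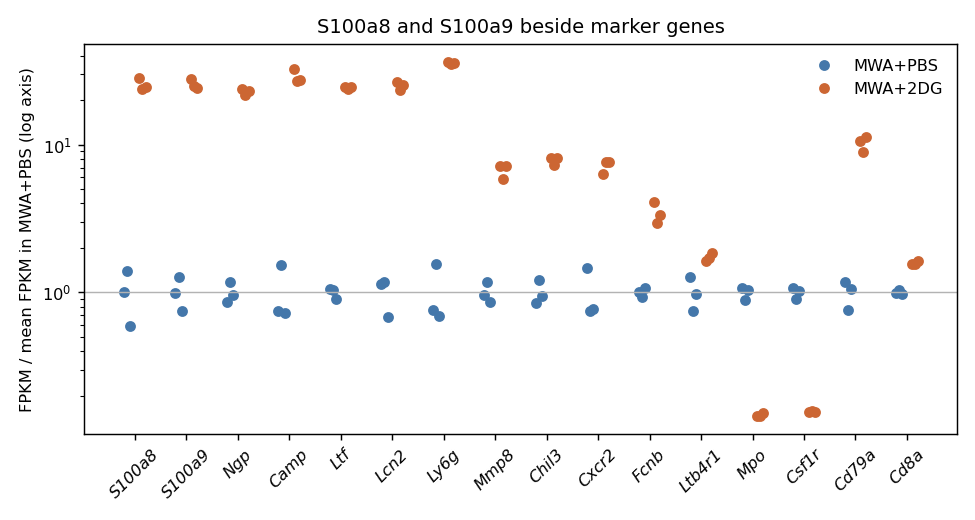
FPKM of each sample divided by the MWA+PBS mean of the same gene, on a log axis, for S100a8, S100a9 and markers of neutrophils (Ngp to Ltb4r1), promyelocyte granules (Mpo), macrophages (Csf1r), B cells (Cd79a) and CD8+ T cells (Cd8a). S100a8 and S100a9 sit with Ngp, Camp, Ltf and Lcn2 near 25, Mmp8, Chil3, Cxcr2, Fcnb and Ltb4r1 lie lower, and Mpo and Csf1r lie below 1.

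Most other myeloid markers on the lists, from cells of which some can also carry S100a8 and S100a9, went the other way. Of the 5 promyelocyte granule genes 5 were lower, with a summed level of 331.2 to 388.0 FPKM in MWA+PBS, against 60.2 to 64.3 FPKM in MWA+2DG. Of 15 tested monocyte and macrophage markers Fcgr1 passed the filter only through MWA+PBS, and of the other 14, 12 were lower and 1 higher. The higher marker was Ly6c2, at 0.41 ± 0.07 (SE, limma adjusted p = 0.00285). Ccr2 did not pass, at -0.06 (limma adjusted p = 0.491), so the fall did not extend to every marker of the list. The sums over the list were 722.8 to 786.0 and 189.8 to 208.1 FPKM. Mpo, the myeloperoxidase of early granules, fell by 2.72 on the log2 scale (limma adjusted p = 5.92e-07), and Csf1r, the macrophage growth factor receptor, fell by 2.57 (limma adjusted p = 4.79e-07). Neither Mpo nor Csf1r was at 0 in any sample.

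Transcription factors of the myeloid lineage, some of which bind the motifs above, also differed in direction. Of 7 genes on that list, with the receptor Csf3r among them, 5 were tested, and 1 of these, Cebpa, passed the filter only through MWA+PBS. Of the other 4, 1 was higher and 1 lower, with a median of 0.08. Over all 5, after T cell lineage scaling 1 was higher and 3 were lower. With a mean FPKM of at least 5 there were 0 higher and 1 lower. Cebpe, a factor of late granule genes, was 1.62, 1.53 and 1.18 FPKM in MWA+PBS and 4.38, 4.70 and 4.10 FPKM in MWA+2DG. Its log2 fold change was 1.15 ± 0.10 (SE, limma adjusted p = 0.000108). Cebpa was 5.96, 4.19 and 5.09 FPKM in MWA+PBS and 0.80, 0.67 and 0.63 FPKM in MWA+2DG. Spi1, which encodes PU.1, was lower, with -0.95 ± 0.07 (limma adjusted p = 5.15e-05). The groups of Cebpe did not overlap. Macrophage markers were lower too, and the part of macrophage RNA in the Cebpa and Spi1 differences was not tested.

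The receptors and binding proteins of calprotectin did not follow it. Of 9 tested genes 1, Ly96, passed the filter only through MWA+PBS. Of the other 8, 0 were higher and 3 lower, with a median of -0.24 beside 0.05 for all genes. After T cell lineage scaling all 9 were lower, and with a mean FPKM of at least 5 there were 2 lower. Cd14, a coreceptor of TLR4, was 16.05, 15.81 and 14.33 FPKM in MWA+PBS and 2.84, 2.34 and 3.12 FPKM in MWA+2DG, so the groups were far apart (log2 fold change -2.13 ± 0.09, limma adjusted p = 4.65e-06). Ly96, the other TLR4 coreceptor, was 1.80, 2.63 and 1.98 FPKM in MWA+PBS and 0.42, 0.75 and 1.31 FPKM in MWA+2DG. Tlr4 itself was lower, at -0.64 ± 0.09 (limma adjusted p = 0.00107). Emb, the S100A8/S100A9 receptor embigin, named after its value was seen, was also lower, at -0.46 ± 0.06 (limma adjusted p = 0.00116). Ager, which encodes RAGE, did not pass, at -0.35 ± 0.15 (limma adjusted p = 0.104), but passed after scaling to T cell lineage genes, at -0.65 (limma adjusted p = 0.00575). Cd14 is itself a monocyte gene, and the part of macrophage RNA in these differences was not tested.

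Of the 7 subunits of the phagocyte NADPH oxidase, to which calprotectin carries arachidonic acid, 4 were higher and 2 lower by adjusted p. Ncf1, the cytosolic organizer p47phox, was at 0.55 ± 0.08 (limma adjusted p = 0.00157), and lost its call at 0.11 after T cell lineage scaling. Rac2, the GTPase of blood cells, was higher at 0.28 (limma adjusted p = 0.0101), a direction that turned to -0.18 with T cell lineage scaling, and Rac1 was lower at -0.28 (limma adjusted p = 0.00262). Leaving out MWA+PBS replicate 1 or 3, or MWA+2DG replicate 4 or 5, left 2 subunits higher. After T cell lineage scaling 0 subunits were higher and 6 lower, and with a mean FPKM of at least 5 there were 4 higher and 1 lower.

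S100a6 (ENSMUSG00000001025) encodes calcyclin, which binds annexins and ubiquitin-ligase adaptors. It was 4.87, 5.58 and 2.98 FPKM in MWA+PBS and 6.61, 7.60 and 6.58 FPKM in MWA+2DG. The groups did not overlap, though the gap between them was smaller than the range within MWA+PBS. The means were 4.48 ± 1.34 and 6.93 ± 0.58 FPKM (SD, n = 3), a log2 fold change of 0.56 ± 0.18 (SE). MWA+PBS replicate 3 was the low sample, and without it the log2 fold change was 0.35.

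Cacybp, the calcyclin-binding protein, went the other way. It was 54.18, 58.96 and 47.60 FPKM in MWA+PBS and 25.71, 24.69 and 29.35 FPKM in MWA+2DG. Its log2 fold change was -0.98 ± 0.09 (SE, limma adjusted p = 0.000201). All 3 MWA+2DG samples lay far below the MWA+PBS samples. Sugt1, another S100A6 partner, named after its value was seen, was higher at 0.28 (limma adjusted p = 0.0165), a call lost without MWA+PBS replicate 1 (limma adjusted p = 0.0626) or MWA+2DG replicate 6 (limma adjusted p = 0.0589), with a sign that turned to -0.14 after T cell lineage scaling. Anxa11, an annexin that S100A6 binds, did not pass, at 0.12 (limma adjusted p = 0.175), but passed as higher with arrayWeights, at 0.16 (limma adjusted p = 0.0475), and as lower after T cell lineage scaling, at -0.31 (limma adjusted p = 0.0108).

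S100a4 (ENSMUSG00000001020) encodes a protein that acts on nonmuscle myosin and cell motility. It was 12.36, 19.43 and 13.30 FPKM in MWA+PBS and 16.78, 13.08 and 15.26 FPKM in MWA+2DG. The samples of the groups were interleaved, and the highest of all was MWA+PBS replicate 2. The means were 15.03 ± 3.84 and 15.04 ± 1.86 FPKM (SD, n = 3), with a log2 fold change of 0.02 ± 0.16 (SE) that lay between -0.10 and 0.21 when each sample was left out. Myh9, the heavy chain of that myosin, was at 0.04 ± 0.10 (limma adjusted p = 0.794), and passed as lower after T cell lineage scaling, at -0.42 (limma adjusted p = 0.0135). Per unit of Cd8a, S100a4 was 0.0539 to 0.0812 in MWA+PBS, against 0.0364 to 0.0462 in MWA+2DG, so these ratios did not overlap, while Cd8a itself was higher in MWA+2DG. Per 100 FPKM of Cd3e, the ranges overlapped, at 12.5 to 21.9 and 9.21 to 14.3. S100a4 shared 302 identical bases with the gene model Gm42674, which is not among the IDs used here.

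S100a10 (ENSMUSG00000041959) encodes p11, an S100 protein that has lost calcium binding and forms a heterotetramer with annexin A2 at the membrane. It was 52.63, 56.62 and 46.96 FPKM in MWA+PBS and 62.79, 52.70 and 55.09 FPKM in MWA+2DG. The groups overlapped, with means of 52.1 ± 4.85 and 56.9 ± 5.27 FPKM (SD, n = 3) and a log2 fold change of 0.12 ± 0.09 (SE).

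Its partner Anxa2 was lower in MWA+2DG, at 17.65, 20.66 and 16.02 FPKM against 11.20, 12.40 and 11.72 FPKM. The groups did not overlap (log2 fold change -0.58 ± 0.09, limma adjusted p = 0.0024). The ratio of S100a10 to Anxa2 was 2.74 to 2.98 in MWA+PBS, against 4.25 to 5.61 in MWA+2DG. As S100a10 overlapped between the groups, this ratio mainly restates the lower Anxa2. Macrophage markers were lower too, and the part of macrophage RNA in the Anxa2 difference was not tested. Ahnak, a giant scaffold protein held by the same complex, was higher at 0.29 ± 0.08 (limma adjusted p = 0.0312), a call lost without MWA+PBS replicate 1 or 2 or MWA+2DG replicate 4 or 5, with median ratio scaling (limma adjusted p = 0.0812) and with no filter on low values (limma adjusted p = 0.0718). Its sign turned to -0.17 after T cell lineage scaling.

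S100a11 (ENSMUSG00000027907) encodes a protein that binds annexin A1 and takes part in membrane repair. It was 92.81, 103.31 and 94.70 FPKM in MWA+PBS and 107.45, 109.70 and 92.23 FPKM in MWA+2DG. The groups overlapped, and the lowest of all samples was MWA+2DG replicate 6. The means were 96.9 ± 5.60 and 103.1 ± 9.50 FPKM (SD, n = 3), a log2 fold change of 0.09 ± 0.08 (SE). The gene models Gm12854 and Gm7665 match it over 297 bases at identities of 98.99% and 98.653%, so reads could have been split among the 3 and the level of S100a11 is uncertain. Gm12854 was 2.58 to 4.19 FPKM and Gm7665 1.94 to 6.14 FPKM over the 6 samples.

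Anxa1, which encodes the S100A11 partner and is abundant in neutrophils, was 9.27, 11.28 and 8.77 FPKM in MWA+PBS and 45.70, 40.81 and 42.97 FPKM in MWA+2DG. Every MWA+2DG sample was above every MWA+PBS sample (log2 fold change 2.04 ± 0.09, limma adjusted p = 5.5e-06). The ratio of S100a11 to Anxa1 was 9.16 to 10.8 in MWA+PBS, against 2.15 to 2.69 in MWA+2DG. Thus the S100a10 to Anxa2 ratio was higher and the S100a11 to Anxa1 ratio lower in MWA+2DG. On the list of intracellular S100 partner genes, which includes S100pbp, 10 of 15 were tested, 4 were higher (Anxa1, S100pbp, Ahnak and Sugt1) and 2 lower (Cacybp and Anxa2), with a median of 0.08. Without MWA+PBS replicate 1, 2 partners were higher, and after T cell lineage scaling 1 was higher and 6 were lower. S100pbp, named for its binding of S100P, which is not among the 7 members, was at 0.43 ± 0.06 (limma adjusted p = 0.000864), and at 0.02 after T cell lineage scaling.

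S100a13 (ENSMUSG00000042312) encodes a protein needed for the export of FGF1 and interleukin-1 alpha, which lack a signal peptide. It was 9.10, 10.16 and 6.92 FPKM in MWA+PBS and 10.66, 8.53 and 10.72 FPKM in MWA+2DG. The groups overlapped. The means were 8.73 ± 1.65 and 9.97 ± 1.25 FPKM (SD, n = 3), a log2 fold change of 0.18 ± 0.14 (SE), which turned to -0.23 after T cell lineage scaling. Neither Fgf1 nor Il1a passed the filter on low values. Fgf1 was 0.72, 0.68 and 0.57 FPKM in MWA+PBS and 0.12, 0.11 and 0.07 FPKM in MWA+2DG, and Il1a was 1.61, 2.17 and 1.06 FPKM and 0.31, 0.19 and 0.43 FPKM, so the groups of both were apart. With no filter, 4 genes of the partner list were lower.

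**Figure D3:**
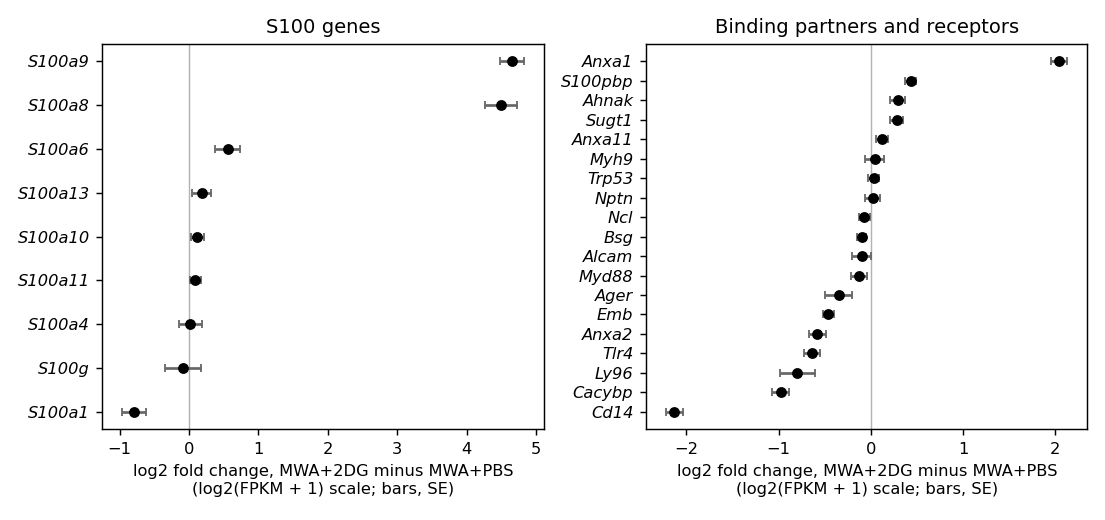
Log2 fold changes, MWA+2DG minus MWA+PBS, with their SE for tested S100 genes (left) and for tested S100 binding partners and calprotectin receptors (right), on the log2(FPKM + 1) scale from all 6 samples. S100a8 and S100a9 lie above 4 and S100a1 at -0.79, Anxa1 is at 2.04 and Cd14 at -2.13. With T cell lineage scaling values are lower, and Sugt1 and Ahnak, among others, turn below 0.

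S100a1, the neighbour of S100a13 and a calcium sensor of muscle, is one of the 6 listed S100 genes that were not chosen. It was 5.11, 5.77 and 4.41 FPKM in MWA+PBS and 2.64, 1.74 and 3.34 FPKM in MWA+2DG. The groups did not overlap (log2 fold change -0.79 ± 0.17, limma adjusted p = 0.00857). S100a1 over S100a13 was 0.562 to 0.637 in MWA+PBS, against 0.204 to 0.312 in MWA+2DG. Both genes share 98 bases in the annotation on opposite strands, and the use of strand in the counting is unstated, so part of their reads cannot be told apart. S100g, the vitamin D-dependent calbindin, was 1.44 to 2.35 FPKM and 0.76 to 2.69 FPKM and did not pass (limma adjusted p = 0.815).

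The remaining 4 were under the filter. S100a16 was 0.68, 0.61 and 0.45 FPKM in MWA+PBS and 0.09, 0.09 and 0.12 FPKM in MWA+2DG, without overlap. S100a14 was at most 0.32 FPKM, S100a3 at most 0.12 FPKM and S100b at most 0.02 FPKM. Genes of the fused type, long skin proteins with an S100 domain at one end, were all near 0, with Flg at 0 in every sample and a summed level of at most 0.11 FPKM for Flg, Hrnr and Tchh.

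The order of the levels differed between the groups. In MWA+PBS S100a11 came first, then S100a10, S100a9, S100a4, S100a13, S100a8, S100a1, S100a6 and S100g, by mean FPKM. Neighbours whose ranges overlapped were S100a9 with S100a4 and each neighbouring pair from S100a13 to S100a6. In MWA+2DG S100a9 came first, then S100a8, S100a11, S100a10, S100a4, S100a13, S100a6, S100a1 and S100g, and of these neighbours S100a1 and S100g overlapped. The chain S100a11, S100a10, S100a4, S100a13, S100a6 had the same order in both.

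S100 transcripts together held 191.7 to 241.0 FPKM in MWA+PBS, against 873.7 to 1008 FPKM in MWA+2DG. Without S100a8 and S100a9 the sums overlapped, at 171.2 to 204.2 and 184.2 to 209.3 FPKM. S100a8 and S100a9 made up 10.7% to 15.3% of the S100 FPKM in MWA+PBS, against 78.3% to 79.2% in MWA+2DG. The S100 genes held 0.0638% to 0.0770% and 0.299% to 0.331% of each library's total FPKM.

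**Figure D4:**
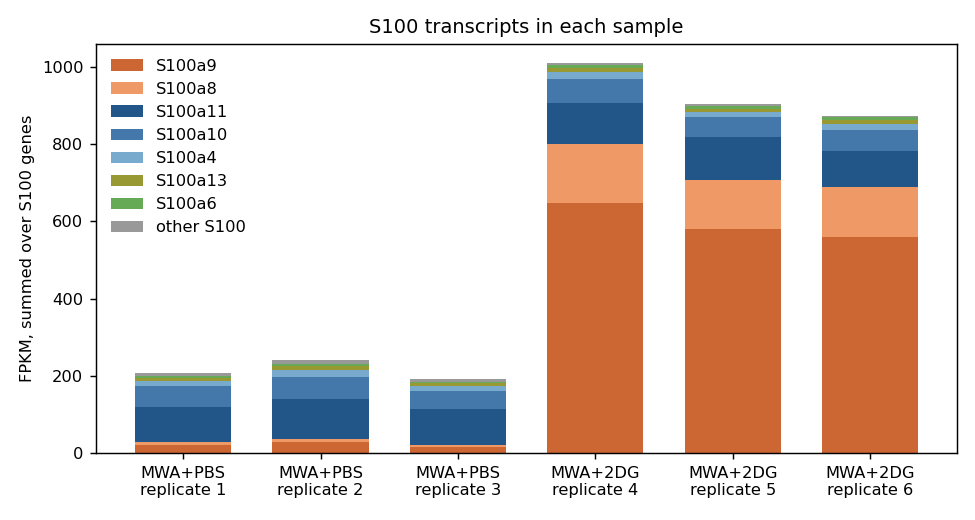
FPKM summed over the 13 listed S100 genes in each sample, stacked by gene. The bars stand at 191.7 to 241.0 FPKM in MWA+PBS, mostly S100a11 and S100a10, and at 873.7 to 1008 FPKM in MWA+2DG, mostly S100a9.

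The choice of the members did not use transcript length or the order of samples within a group. The longest annotated transcripts of all 7 were short, from 498 to 783 bases. MWA+PBS replicate 2 was the highest sample of its group for 7 of 7 members. Replicate 2 was also the highest of its group for 43.63% of the 2065 tested genes with transcripts of at most 1000 bases and for 43.67% of the longer ones. The genes nearest in pattern to S100a4 were Ppp1ccb, Fam162a, Cript, Gm13835 and Gm12666, with differences of 0.041 to 0.078, and those nearest to S100a13 were Psma2, Pin4, Dok3, Pfdn4 and Cbwd1, with 0.031 to 0.045.

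**Figure D5:**
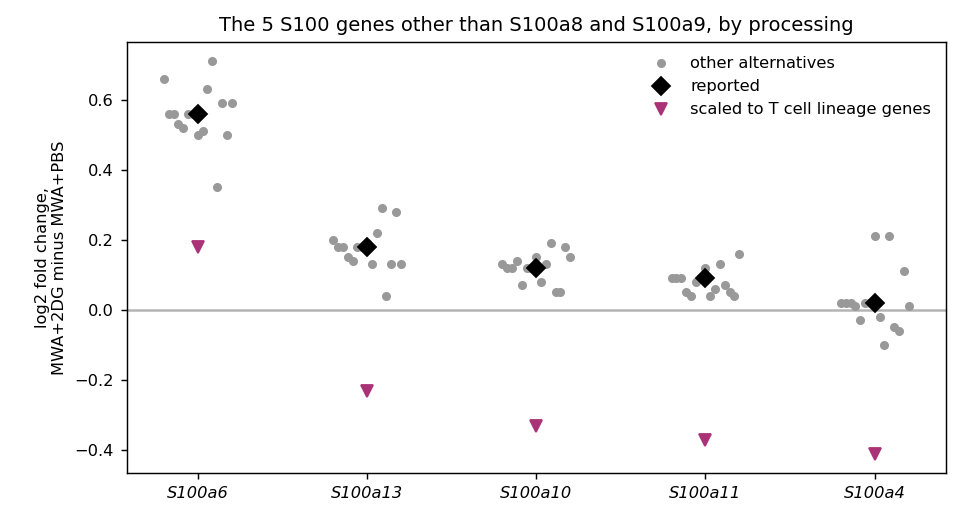
Log2 fold changes of S100a6, S100a13, S100a10, S100a11 and S100a4 as reported (diamonds), after scaling to T cell lineage genes (triangles) and under the other alternatives, the leaving out of each sample included (grey). S100a6 stays between 0.35 and 0.71 in the grey points and is 0.18 after T cell lineage scaling, which takes the other 4 to between -0.41 and -0.23.

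Genes of antigen-experienced CD8+ T cells, the state in which S100a4, S100a6, S100a10 and S100a11 are known to be high, moved in both directions. Of 19 tested 7 were higher and 8 lower, with a median of 0.06, and without any 1 of MWA+PBS replicates 1 and 3 and MWA+2DG replicates 4 to 6 the lower count was 5. After T cell lineage scaling 2 were higher and 11 lower. The chemokine receptor Cxcr3 was higher at 1.53 (limma adjusted p = 4.08e-05), while Zeb2, at -0.87 (limma adjusted p = 0.000122), and the galectin gene Lgals3, at -0.78 (limma adjusted p = 0.00043), were lower. Zeb2 and Lgals3 are also expressed by macrophages, whose markers were lower, and the part of macrophage RNA here was not tested. Of 10 genes of naive T cells 3 were higher and 0 lower, with a median of 0.18, and without MWA+PBS replicate 2 there was 1 lower. After T cell lineage scaling 2 were higher and 7 lower. Among the higher genes were S1pr1, a receptor for exit into blood, at 0.80 (limma adjusted p = 1.4e-05), and the lymph node homing receptor Ccr7, at 0.64 (limma adjusted p = 0.000177).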

How the data were processed

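Splenic CD8+ T cell RNA of 6 samples was analysed. The authors deposited FPKM values per gene. The submitters' processing notes name cutadapt 1.9, HISAT2 2.0.4, UMI-tools, StringTie 1.3.4d and mm9. The study's methods name fastp, HISAT2, StringTie and ballgown. Whether strand or molecular identifiers entered the counting is unstated in these sources. No counts are held, so depth and counting error are unknown. Promoters came from RefSeq (GRCm38.p6), transcript lengths from GENCODE M21, and near-identical copies from BLAST 2.17.0.

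Genes with a mean FPKM of at least 1 were fitted on log2(FPKM + 1) with limma 3.58.1 in R 4.3.3 (two-sided test of MWA+2DG minus MWA+PBS, eBayes with a trend, no covariates), with Benjamini-Hochberg adjustment over all tested genes. This scale understates changes of low genes. List counts use adjusted p under 0.05. The members and lists were chosen with earlier results of these data known. Named genes were the S100 genes, preset partners and at most 3 genes at either end of each list, and the 5 nearest in pattern to S100a9, S100a4 and S100a13. Denominators of ratios and the markers plotted were chosen with their values known. Some genes that the rule names are not reported here. Alternatives were a pseudocount of 0.1, other filters, scalings, variance models and size thresholds, leaving out each sample, and removal of a length trend, which was added after seeing the data. The fit was tested on simulated data.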

Additional observations from a re-analysis of the deposited data

How the results depend on the processing

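No paired analysis was possible because the groups share no replicate number (1 to 3 against 4 to 6). The 3 members passing as higher stayed 3, and 0 were lower, under the alternatives run other than T cell lineage scaling, which left 2 higher and 3 lower, and a log2 fold change beyond 1, which left 2 higher. Leaving out each sample gave 4.22 to 4.74 for S100a8, 4.47 to 4.83 for S100a9 and 0.35 to 0.71 for S100a6. Over all genes, a mean FPKM of at least 5 gave 2562 genes by the study's rule and 2951 by adjusted p, with 7313 tested, T cell lineage scaling gave 7970 and 8381, and a log2 fold change beyond 1 gave 627. Leaving out each sample gave 4509 to 5030 by the study's rule and 3669 to 5152 by adjusted p.

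T cell lineage scaling lowers every gene, so small positive values had to turn. It gave -0.31 for Anxa11, -0.17 for Ahnak, -0.42 for Myh9, -0.14 for Sugt1, -0.18 for Rac2, -0.12 for Sri, -0.16 for Capn2 and -0.08 for Cd3e, a gene of that list. Myh9 was -0.01 with quantile normalization and with median ratio scaling and -0.03 with arrayWeights. Leaving out each sample gave -0.07 to 0.11 for Myh9 and -0.32 to 0.22 for S100g, neither past the threshold. For the other changes the cause was not tested. FPKM carries no read depth, so how much depth adds to the spread is unknown.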

Other observations

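Other EF-hand calcium-binding genes, read from a list beside the S100 family, were examined next. Of 14 tested 3 were higher and 0 lower, beside 22.3% and 17.1% of all tested genes, with a median log2 fold change of 0.05, the same as over all genes. Sri, which encodes the calcium sensor sorcin, was at 0.31 ± 0.07 (SE, limma adjusted p = 0.0116), and Capn2, the large subunit of m-calpain, at 0.26 ± 0.06 (limma adjusted p = 0.00939). T cell lineage scaling turned both, to -0.12 and -0.16, and left 13 of the 14 lower. Without MWA+PBS replicate 2, 1 was lower.

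Markers of cells that do not define the S100 results also moved. Of 8 B cell markers 5 passed the filter only through MWA+2DG, and the other 3 were higher, with sums over the 8 of 9.47 to 10.5 FPKM in MWA+PBS, against 52.1 to 56.9 FPKM in MWA+2DG. Of 8 erythroid genes 4 passed it only through MWA+PBS, and the other 4 were lower, with sums over the 8 of 291.7 to 347.4 and 66.9 to 84.7 FPKM. Of 9 dendritic cell markers 3 were tested, 1 of which passed only through MWA+PBS, and the other 2 were lower. Of 5 natural killer cell markers 3 were tested, 2 higher (Klrk1 and Eomes) and 1 lower (Ncr1). Klrb1c and Klre1 were under the filter. Their means were 0.67 and 0.82 FPKM in MWA+2DG, against 0.97 and 1.02 FPKM in MWA+PBS, without overlap. Of 15 T cell lineage genes 14 were higher and 0 lower, with sums of 1861 to 2007 and 2639 to 2845 FPKM. After scaling to that list 3 of its genes were higher and 3 lower.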
